A study of Mus musculus with 30 samples.

Results

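The FGF4 and ERK feedback genes are 8 genes chosen by symbol: the ligand Fgf4, the receptors Fgfr1 and Fgfr2, the inhibitors Spry2 and Spry4, the phosphatase Dusp6, and the transcription factors Etv4 and Etv5. They were measured by 22 probe sets, out of 45101 on the array, and were followed in every array of a differentiation course. Each gene was read from its brightest probe set, by mean log2 intensity over all arrays, as it did for all 18194 genes tested, and the other probe sets of the 8 genes are given beside it.

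The cells were mouse embryonic stem (ES) cells of 2 genotypes. Fl/Fl cells carry floxed alleles of Jmj, the gene now named Jarid2, and are called wild type in the labels; null cells are labelled Jmj (-/-). Jarid2 encodes a partner of PRC2, the Polycomb complex that methylates histone H3 at silent genes. Both lines were made to differentiate by withdrawing LIF, the cytokine that keeps mouse ES cells undifferentiated, and RNA was taken at days 0, 2, 4, 6 and 8. There were 10 Fl/Fl arrays, 2 for each day, and 20 null arrays, with 3 for day 0, 5 for day 2, 5 for day 4, 5 for day 6 and 2 for day 8. The number of clones and of separate cultures is not stated in the labels, which call the arrays biological replicates, so the p-values measure only the spread between these samples. Replicate numbers below are those of the labels, and values are listed in that order.

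FGF4 is the main fibroblast growth factor that undifferentiated mouse ES cells secrete, and Fgf4 is a target of Oct4 and Sox2. It binds FGF receptors together with heparan sulphate, and the receptors activate the kinases MEK and ERK, a signal that ES cells need to leave the undifferentiated state. ERK in turn induces genes that damp it: the Sprouty proteins act downstream of the receptor, DUSP6 removes the activating phosphates from ERK, and ETV4 and ETV5 are ETS transcription factors widely used as transcriptional readouts of FGF signalling.

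Promoter sequence is shown for 3 of the genes because they ran 3 different courses: Fgf4 was lost, Spry2 declined slowly, and Dusp6 rose early and stayed up to day 6. The sequences are the 250 bases before the annotated start, from RefSeq on GRCm38.p6, at chr7:144861136-144861385 (plus strand) for Fgf4, chr14:105896820-105897069 (minus strand) for Spry2 and chr10:99262981-99263230 (plus strand) for Dusp6. They are written 5' to 3' on the strand of the gene. Capitals mark GGAA, the core that ETS factors such as ETV4 and ETV5 bind, on either strand, so that TTCC is the same match read on the other strand.
Fgf4 promoter: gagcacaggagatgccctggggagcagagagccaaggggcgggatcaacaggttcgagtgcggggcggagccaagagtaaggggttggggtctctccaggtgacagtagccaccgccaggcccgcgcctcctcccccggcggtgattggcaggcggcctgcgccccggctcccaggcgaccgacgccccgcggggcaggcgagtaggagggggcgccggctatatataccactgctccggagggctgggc
Spry2 promoter: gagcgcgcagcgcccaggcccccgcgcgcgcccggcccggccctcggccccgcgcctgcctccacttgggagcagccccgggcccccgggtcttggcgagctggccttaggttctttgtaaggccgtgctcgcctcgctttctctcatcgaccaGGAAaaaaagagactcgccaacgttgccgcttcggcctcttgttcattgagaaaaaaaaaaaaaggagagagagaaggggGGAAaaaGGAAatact
Dusp6 promoter: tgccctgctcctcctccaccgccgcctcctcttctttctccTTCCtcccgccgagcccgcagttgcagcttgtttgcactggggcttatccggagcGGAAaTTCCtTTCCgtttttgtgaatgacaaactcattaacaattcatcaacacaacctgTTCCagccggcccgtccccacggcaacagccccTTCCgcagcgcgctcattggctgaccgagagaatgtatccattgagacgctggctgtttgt
The Fgf4 window held 0 matches, the Spry2 window 3 and the Dusp6 window 6. Of 32851 promoter windows of the same length, 93.4% held at least 1 match and the median was 3. The longer motif AGGAAG (either strand, counted also where it overlaps a GGAA match) was found 1 time in the Dusp6 window, 0 times in the other two, and in 29.5% of all windows. RefSeq windows were matched for 5 of the 8 genes, and Spry4 was left out of the matching. The windows not printed held 2 GGAA matches for Fgfr2, and 0 and 4 for the 2 windows of Etv5. A match is a description of these letters and not a measured site.

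Some libraries stood apart before any comparison. Eif2s3y, a gene on the Y chromosome, was high in 11 null arrays, at 594 to 981. A further 5 null arrays stood at 217 to 365, the last 4 at 11 to 16, and the Fl/Fl arrays at 130 to 234. The 4 lowest were day 2 replicate 1 and replicate 2 of days 4, 6 and 8. The 5 and the 4 form the other 9 null arrays below, which hold 1 array at day 0, and counts without the 4 are given after the counts of the 8 genes. The imprinted noncoding transcript Meg3 gave 21 to 88 in the 11 arrays, 287 to 1902 in the 9, against 653 to 2579 in Fl/Fl, and the actin 3'/5' ratio, a sign of RNA quality, was 1.29 to 1.43, 1.54 to 2.02 and 1.48 to 2.04 in that order. The 11 arrays were replicates 2 and 3 at day 0 and replicates 3, 4 and 5 at days 2, 4 and 6; day 8 held none. They are called the high-Eif2s3y arrays below, are not groups of the study, and were set apart only once their values were known. Some comparisons, not all, are also given for either set of null arrays against all Fl/Fl arrays. Jarid2 itself read 3335 and 3340 in Fl/Fl and 4082, 2943 and 2872 in null at day 0. No source used here says whether its probe sets lie in the deleted part, and its level therefore does not check the genotype. The summed level of 12 pluripotency genes at day 0 was 26743 to 31181 in Fl/Fl and 25885 to 29260 in null. The 11 streak and mesoderm genes measured summed to 154 to 180 in Fl/Fl and 136 to 138 in null at day 0. At day 2 they summed to 189 to 202 in Fl/Fl and 144 to 167 in null. By limma 0 of the 11 passed on either day, where 1.18% and 0.621% of all genes did. Mixl1, a primitive streak gene picked from the 11, read 4 to 6 on every array of days 0 and 2. The cultures were not alike at day 0: the 10 trophoblast genes summed to 6865 to 8824 in Fl/Fl and 1169 to 2065 in null. By limma 3 of 10 were lower in null, where 1.18% of all genes passed.

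Differences are log2 changes of intensity plus a pseudocount of 4, which understates the change of dim genes, with the standard error (SE) and an adjusted p from limma (Benjamini-Hochberg over all 18194 genes, two-sided, threshold 0.05). Levels are probe set intensities in the deposited units and are compared between arrays, not between genes.

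**Figure D1:**
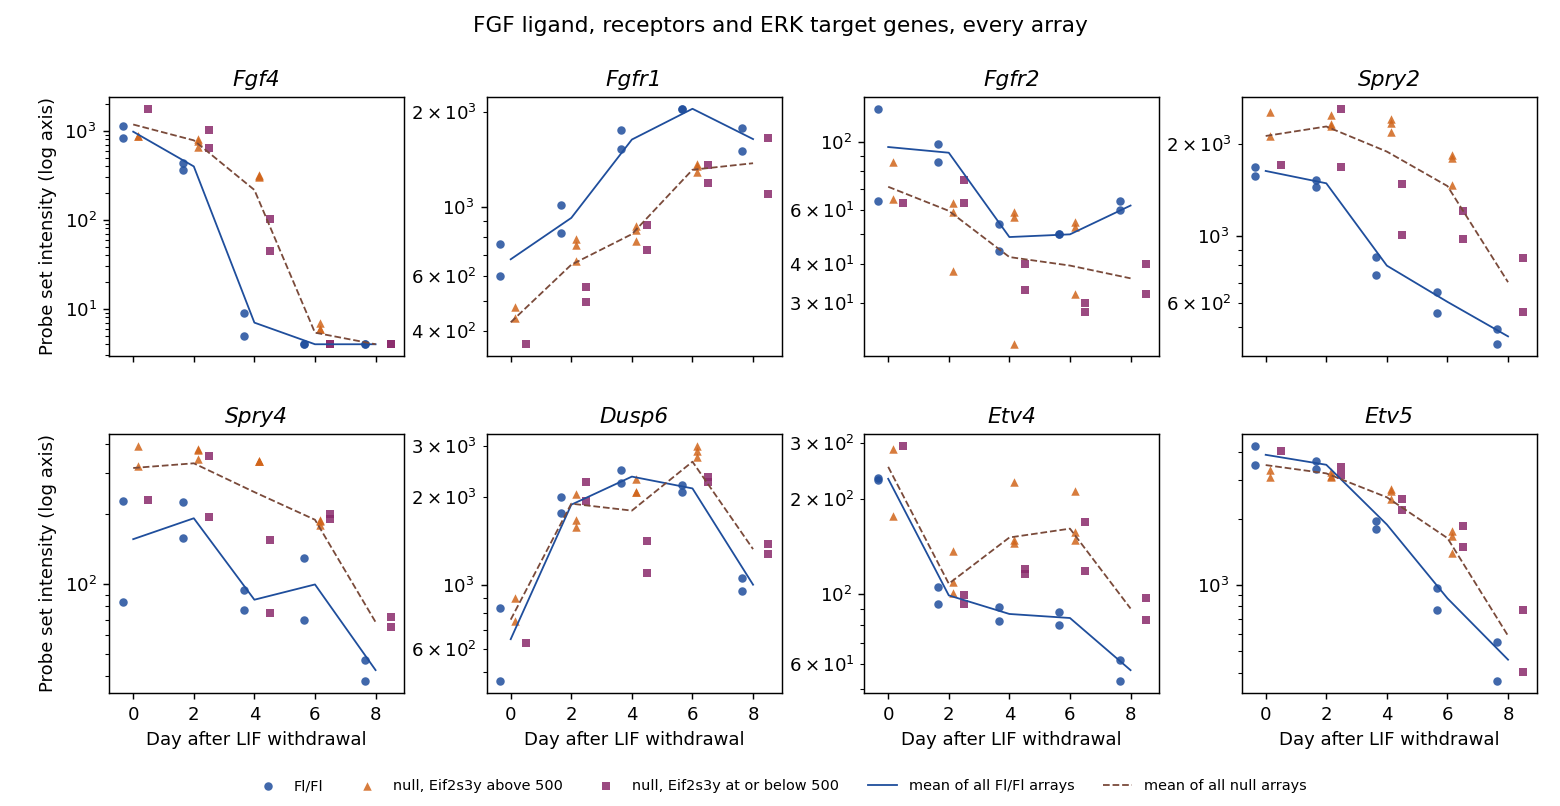
Intensity of the probe set that stands for each of the 8 genes (log axis) against the day after LIF withdrawal. Each point is 1 array: circles Fl/Fl, triangles null with Eif2s3y above 500, squares null with Eif2s3y at or below 500; lines join the group means. Fgf4 reached 5 and 9 at day 4 in Fl/Fl and 45 to 320 in null, while Dusp6 rose by day 2 in both genotypes and at day 4 spanned 2238 to 2476 in Fl/Fl but 1097 to 2304 in null.

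Fgf4, the ligand, was lost 1 sampling later in null cells. In Fl/Fl it read 833 and 1125 at day 0, 363 and 434 at day 2, 5 and 9 at day 4, and 4 on all 4 arrays of days 6 and 8. Null arrays read 1783, 885 and 868 at day 0, then 635, 1030, 655, 817 and 775 at day 2. At day 4 they read 103, 45, 320, 312 and 304, at day 6 they read 4, 4, 6, 6 and 7, and both day 8 arrays read 4. All 5 null arrays lay above both Fl/Fl arrays at days 2 and 4, whereas the groups overlapped at days 0, 6 and 8. The ordered group means were 979, 398.5, 7, 4 and 4 in Fl/Fl and 1178.7, 782.4, 216.8, 5.4 and 4 in null, and days 6 and 8 were not separated in either genotype.

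In Fl/Fl, Fgf4 fell by 6.49 from day 0 to day 4 on the log2 scale (SE 0.603, adjusted p = 1.93e-07), and in null by 2.67 (SE 0.44, adjusted p = 0.000192). The null change was the smaller by log2 3.82 (SE 0.747, adjusted p = 0.00936), a test of the difference itself. Of the 8 genes, 1 passed that test, where 1.42% of all genes did; without Fl/Fl day 4 replicate 1, which read 5, the adjusted p was 0.0529. The F test for any change of the genotype difference over the days was passed by Fgf4 alone among the 8 (F = 10.6, adjusted p = 0.0045; 4.94% of all genes passed; adjusted p = 0.0626 without that array). At day 4 itself Fgf4 was higher in null by a fitted log2 4.02 (SE 0.505, adjusted p = 1.81e-05). The Fl/Fl arrays, at 5 and 9, lay near 4, the lowest reading of this probe set, so that the size depends on the pseudocount (log2 4.47 with 1 and 3.06 with 16) and no fold is given. At day 2 the difference was log2 0.95 (SE 0.505, adjusted p = 0.586) and did not pass.

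The day 4 level depended on which null arrays were read. The 3 high-Eif2s3y arrays read 304 to 320 and the other 2 read 45 and 103. Against Fl/Fl the difference was log2 4.87 (adjusted p = 4.58e-10) with the first and 2.74 (adjusted p = 0.00246) with the second, so both sets passed. The difference between the day 4 changes was 5.01 (adjusted p = 3.64e-08) with the high-Eif2s3y arrays. With the others it was 1.86, a value that rests on 1 null array at day 0, the one at 1783, and is given with no test. At day 2 the high-Eif2s3y arrays passed (log2 0.90, adjusted p = 0.00205) and the others did not (log2 1.02, adjusted p = 0.503). In bulk RNA, fewer cells with Fgf4 and less Fgf4 per cell cannot be told apart.

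The other 3 probe sets of Fgf4 were dimmer. Probe set 1420086_x_at followed the same course and was higher in null at day 4 by log2 4.25 (adjusted p = 1.45e-05 over the 34958 probe sets that name 1 gene). Probe set 1450282_at read 6 on both Fl/Fl arrays and 8, 7, 81, 89 and 86 on the null arrays at day 4 (log2 1.98, adjusted p = 0.16). The 3 arrays that read 81 to 89 were the high-Eif2s3y arrays. Probe set 1449729_at, which never exceeded 90, differed at day 0 instead, with 8 and 17 in Fl/Fl and 90, 57 and 21 in null (log2 1.72, adjusted p = 0.0354).

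Some markers of cell state also differed at day 4. The 12 pluripotency genes summed to 6632 to 7330 in Fl/Fl and 13651 to 15028 in null. By limma 2 of them were higher in null and 1 lower, where 11.6% of all genes passed, and their median difference was log2 0.48. Sox2, an activator of Fgf4 named here after its values were seen, read 623 and 654 in Fl/Fl and 2218, 2182, 3662, 3309 and 3732 in null, so it too was highest in the high-Eif2s3y arrays. It is 1 gene picked from the 12. The gene of Oct4, the other activator named above, is also among the 12, and its values are not given here. The 11 streak and mesoderm genes measured summed to 4197 to 4609 in Fl/Fl and 298 to 873 in null. Of these, 6 were lower in null, where 7.43% of all genes were. Their part in the difference of Fgf4 was not tested.

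Of the 2 receptors, Fgfr1 was lower in null cells, and Fgfr2 passed only in the average over the 5 days. Fgfr1, a receptor tyrosine kinase for FGF4, rose as differentiation went on. Fl/Fl arrays read 601 and 757 at day 0, 826 and 1014 at day 2, 1521 and 1749 at day 4, 2053 and 2045 at day 6, and 1503 and 1778 at day 8. Null arrays read 364, 441 and 478 at day 0, then 554, 497, 788, 755 and 669 at day 2, and 725, 875, 866, 778 and 839 at day 4. At day 6 they read 1191, 1353, 1291, 1371 and 1343, and at day 8 they read 1100 and 1648. Every null array lay below both Fl/Fl arrays at days 0, 2, 4 and 6, and the groups overlapped at day 8.

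Fgfr1 was 2-fold lower in null at day 4 (log2 −1, SE 0.165, adjusted p = 0.000348) and 1.56-fold lower at day 6 (log2 −0.65, SE 0.165, adjusted p = 0.0143; 0.134 without Fl/Fl day 6 replicate 2). Averaged over the 5 days the difference was log2 −0.62 (SE 0.078, adjusted p = 1.13e-05). Of 20 null arrays, 19 lay below the Fl/Fl mean of their day. The rise from day 0 to day 6 was nearly the same size, 3.03-fold in Fl/Fl (adjusted p = 3.35e-06) and 3.06-fold in null (adjusted p = 2.48e-08). The day 4 difference was log2 −0.98 (adjusted p = 3.72e-05) with the high-Eif2s3y arrays and −1.03 (adjusted p = 0.0187) with the others. A second probe set, 1425911_a_at, was lower in null at day 4 by log2 −1.06 (adjusted p = 0.000121 among probe sets), and probe set 1436551_at stayed between 8 and 27 on all arrays.

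Fgfr2, whose splice forms answer to different FGFs in epithelium and mesenchyme, was dim. Its change from day 0 passed at no day in Fl/Fl. Null cells showed a fall at day 6 (log2 −0.83, adjusted p = 0.0281) and day 8 (−0.91, adjusted p = 0.0494), each lost on leaving out 1 array (0.121 without null day 0 replicate 3 and 0.216 without null day 8 replicate 1). Fl/Fl arrays read 64 and 128 at day 0, 98 and 86 at day 2, 54 and 44 at day 4, 50 and 50 at day 6, and 60 and 64 at day 8. Null arrays read 63, 65 and 86 at day 0, then 75, 63, 59, 63 and 38 at day 2, and 33, 40, 57, 59 and 22 at day 4. At day 6 they read 28, 30, 55, 32 and 53, and at day 8 they read 32 and 40. The groups overlapped at days 0, 4 and 6 and stood apart at days 2 and 8, with null lower on both.

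No single day passed for Fgfr2. Averaged over the days it was lower in null by log2 −0.46 (SE 0.151, adjusted p = 0.0303), with 16 of 20 null arrays below the Fl/Fl mean of their day; leaving out the Fl/Fl day 0 array at 128 (replicate 2) gave an adjusted p of 0.0915. Probe set 1420847_a_at gave log2 −0.14 (adjusted p = 0.722 among probe sets), and 1443211_at read 4 on every array.

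**Figure D2:**
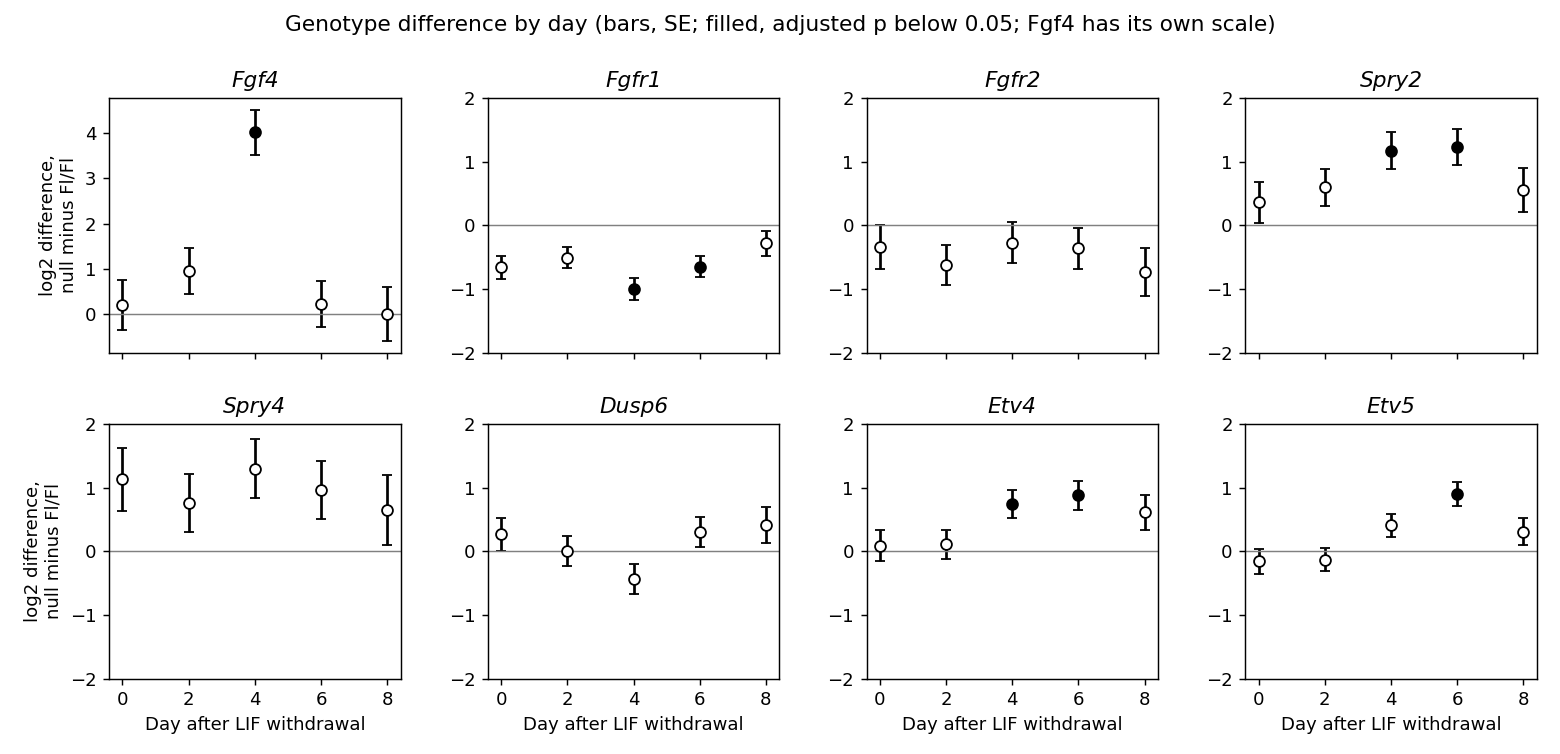
Log2 difference of null from Fl/Fl at each day for the 8 genes, with the SE of the fit as bars; filled points have an adjusted p below 0.05. Fgf4 is on its own scale, with log2 4.02 at day 4; on the common scale of the others Fgfr1 lies below 0 at all 5 days and Spry2 and Spry4 above 0 at all 5.

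The Sprouty genes were higher in null cells. Spry2, an inhibitor induced by FGF signalling, read 1579 and 1690 at day 0, 1447 and 1530 at day 2, 851 and 743 at day 4, 654 and 557 at day 6, and 439 and 493 at day 8 in Fl/Fl. In null it read 1707, 2137 and 2550 at day 0, then 2625, 1688, 2501, 2301 and 2337 at day 2, and 1002, 1481, 2431, 2199 and 2353 at day 4. At day 6 the null arrays read 972, 1204, 1469, 1842 and 1800, and at day 8 they read 844 and 562. The groups overlapped at none of the 5 days: each null array exceeded both Fl/Fl arrays of its day.

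Spry2 was 2.25-fold higher in null at day 4 (log2 1.17, SE 0.29, adjusted p = 0.0102) and 2.34-fold higher at day 6 (log2 1.23, SE 0.29, adjusted p = 0.00845). Leaving out Fl/Fl day 4 replicate 2 gave 0.122 for the first and leaving out Fl/Fl day 6 replicate 2 gave 0.147 for the second. Averaged over the days it was higher by log2 0.79 (SE 0.137, adjusted p = 0.000337), in 20 of 20 null arrays. By day 4 Spry2 had fallen by 1.03 on the log2 scale in Fl/Fl (SE 0.346, adjusted p = 0.0408; 0.203 without Fl/Fl day 4 replicate 2), against a change of −0.23 in null (SE 0.253, adjusted p = 0.682); the difference of these changes did not pass (log2 0.81, adjusted p = 0.529). By day 8 it had fallen in both, by 1.80 (adjusted p = 0.000307) and 1.60 (adjusted p = 0.000413).

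Spry2 differed from Fl/Fl past the threshold with the high-Eif2s3y arrays and not with the others, a contrast between sets that was not tested. At day 4 the difference was log2 1.54 (adjusted p = 6.17e-07) with those 3 arrays and 0.61 (adjusted p = 0.258) with the other 2, and at day 6 it was 1.48 (adjusted p = 8.89e-07) against 0.84 (adjusted p = 0.147). With the high-Eif2s3y arrays Spry2 also passed at day 0 (log2 0.51, adjusted p = 0.0128) and day 2 (log2 0.68, adjusted p = 0.00188). The second probe set of Spry2, 1421656_at, stayed between 5 and 8 on all arrays.

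Spry4, a paralog of Spry2, read 84 and 228 at day 0, 226 and 158 at day 2, 94 and 77 at day 4, 129 and 70 at day 6, and 38 and 47 at day 8 in Fl/Fl. In null it read 231, 323 and 395 at day 0, then 358, 194, 345, 379 and 381 at day 2, and 75, 155, 338, 339 and 338 at day 4. At day 6 the null arrays read 191, 201, 187, 188 and 179, and at day 8 they read 65 and 72. Null arrays exceeded both Fl/Fl arrays of the day at days 0, 6 and 8, and in 4 of 5 arrays at days 2 and 4.

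Spry4 passed at no single day, with log2 1.30 at day 4 (SE 0.457, adjusted p = 0.0731), and passed in the average over days (log2 0.96, SE 0.216, adjusted p = 0.00292; 19 of 20 null arrays above the Fl/Fl mean of their day). At day 4 its difference was log2 1.94 (adjusted p = 0.000592) with the high-Eif2s3y arrays, which read 338 to 339, and 0.33 (adjusted p = 0.922) with the others, which read 75 and 155. A second probe set, 1440867_at, read 52 and 80 in Fl/Fl and 93, 123, 306, 306 and 349 in null at day 4 (log2 1.62, adjusted p = 0.0408 among probe sets) and gave log2 1.34 in the average (adjusted p = 0.000367). Probe sets 1422021_at and 1422020_at did not exceed 83 and 9.

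Dusp6 rose early in both genotypes, and its level passed the test between genotypes at no day. Fl/Fl arrays read 464 and 833 at day 0, 2010 and 1762 at day 2, 2238 and 2476 at day 4, 2090 and 2202 at day 6, and 948 and 1051 at day 8. Null arrays read 629, 747 and 896 at day 0, then 2264, 1941, 2053, 1584 and 1665 at day 2, and 1097, 1417, 2088, 2304 and 2091 at day 4. At day 6 they read 2259, 2358, 2877, 3014 and 2758, and at day 8 they read 1275 and 1376. The groups overlapped at days 0, 2 and 4, and null lay above Fl/Fl without overlap at days 6 and 8.

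From day 0 to day 2, Dusp6 rose 3.01-fold in Fl/Fl (log2 1.59, SE 0.285, adjusted p = 0.00208; 0.0576 without Fl/Fl day 0 replicate 1) and 2.51-fold in null (log2 1.33, SE 0.208, adjusted p = 0.000296). At day 6 it stood 3.43-fold and 3.50-fold above day 0 (adjusted p = 6.71e-05 and 8.15e-07), and by day 8 it had come back to 1.60-fold in Fl/Fl (adjusted p = 0.0733) and 1.76-fold in null (adjusted p = 0.0185). The genotype difference averaged over the days was log2 0.11 (SE 0.113, adjusted p = 0.573). At day 4 it was −0.44 (SE 0.238, adjusted p = 0.3); the high-Eif2s3y arrays gave −0.12 (adjusted p = 0.805) and the other null arrays, at 1097 and 1417, gave −0.91 (adjusted p = 0.0509). A p above the threshold does not show that the levels were equal. At day 4 Dusp6 stood above its day 0 level in both genotypes while Fgf4 stood below its own.

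The ETS genes fell in both genotypes and were higher in null at days 4 or 6. Etv5 read 4285 and 3502 at day 0, 3350 and 3668 at day 2, 1803 and 1958 at day 4, 967 and 774 at day 6, and 552 and 366 at day 8 in Fl/Fl. In null it read 4066, 3338 and 3090 at day 0, then 3169, 3420, 3123, 3242 and 3084 at day 2, and 2464, 2185, 2665, 2462 and 2720 at day 4. At day 6 the null arrays read 1858, 1483, 1398, 1672 and 1750, and at day 8 they read 774 and 404. Null arrays all lay above Fl/Fl at days 4 and 6, and the groups overlapped at days 0, 2 and 8.

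Etv5 was 1.87-fold higher in null at day 6 (log2 0.90, SE 0.183, adjusted p = 0.00262; 0.106 without Fl/Fl day 6 replicate 2). Both sets of null arrays gave a like size at that day, log2 0.88 (adjusted p = 0.000924) with the high-Eif2s3y arrays and 0.94 (adjusted p = 0.143) with the others. At day 4 the difference was 0.41 (SE 0.183, adjusted p = 0.184), and in the average over days 0.27 (SE 0.087, adjusted p = 0.0297; 0.0978 without Fl/Fl day 8 replicate 2), with 12 of 20 null arrays above the Fl/Fl mean of their day. From day 0 to day 8 Etv5 fell 8.55-fold in Fl/Fl (adjusted p = 1.31e-09) and 6.17-fold in null (adjusted p = 3.1e-09). Probe set 1450082_s_at was likewise higher in null at day 6 (log2 1.29, adjusted p = 0.0109 among probe sets). Probe set 1420998_at did not pass there (log2 1.36, adjusted p = 0.137), and its Fl/Fl arrays at day 0 read 1248 and 285.

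Etv4 fell early. It read 233 and 229 at day 0, 93 and 105 at day 2, 82 and 91 at day 4, 80 and 88 at day 6, and 62 and 53 at day 8 in Fl/Fl. In null it read 294, 176 and 286 at day 0, then 99, 93, 101, 137 and 109 at day 2, and 116, 120, 145, 148 and 225 at day 4. At day 6 the null arrays read 169, 118, 157, 148 and 212, and at day 8 they read 97 and 83. The groups overlapped at days 0 and 2, and null lay above Fl/Fl without overlap at days 4, 6 and 8.

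From day 0 to day 2, Etv4 fell 2.29-fold in Fl/Fl (adjusted p = 0.0139) and 2.25-fold in null (adjusted p = 0.000588). It was higher in null by log2 0.74 at day 4 (SE 0.225, adjusted p = 0.0371; 0.277 without Fl/Fl day 4 replicate 1) and by 0.88 at day 6 (SE 0.225, adjusted p = 0.0145; 0.153 without Fl/Fl day 6 replicate 1). The day 4 difference was 0.94 (adjusted p = 0.00792) with the high-Eif2s3y arrays and 0.43 (adjusted p = 0.15) with the others, and the day 6 difference 0.99 (adjusted p = 0.00616) and 0.72 (adjusted p = 0.0459). In the average over days it was log2 0.48 (SE 0.107, adjusted p = 0.00243), with 18 of 20 null arrays above the Fl/Fl mean of their day. The second probe set, 1443381_at, stayed between 6 and 15.

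Counted together, 4 of the 8 genes differed between genotypes at day 4, 3 higher in null (Fgf4, Spry2, Etv4) and 1 lower (Fgfr1), where 11.6% of all genes passed (4.18% higher and 7.43% lower). At day 6 the count was also 4, 3 higher (Spry2, Etv4, Etv5) and 1 lower (Fgfr1), where 9.93% of all genes passed (3.47% higher and 6.46% lower). Markers moved at day 6 too: the pluripotency genes summed to 1433 to 1439 in Fl/Fl and 4849 to 8943 in null (4 higher, 1 lower), the trophoblast genes to 52009 to 58086 and 16036 to 34429 (4 lower) and the fibroblast genes to 2417 to 2773 and 203 to 299 (4 lower). The streak genes summed to 4729 to 6490 and 3814 to 18315 (0 passed by limma). The primitive endoderm genes summed to 465 to 556 and 240 to 1386 (0 higher, 1 lower). Their part in the day 6 differences was not tested. At days 0, 2 and 8 none passed by limma, where 1.18%, 0.621% and 2.51% of all genes did. At an unadjusted p under 0.05, 2 did at day 0 (Fgfr1 and Spry4), 2 at day 2 (Fgfr1 and Spry2) and 1 at day 8 (Etv4). The share of all genes under that unadjusted threshold was not counted, here or for the day 8 changes below. The unadjusted counts therefore cannot be set against the shares given. In the average over days 7 passed, 5 higher and 2 lower, with Dusp6 the exception, where 23.2% of all genes passed (7.76% higher and 15.5% lower). The median difference of the 8 genes at day 4 was 0.58, beside 0 over all genes. The arrays of the 2 genotypes did not overlap for 3 of the 8 genes at day 0 (15.3% of all genes) and for 4 genes at day 2 (12.9%). They did not overlap for 5 genes at day 4 (24.7%), for 6 genes at day 6 (25.0%) and for 5 genes at day 8 (25.3%). Over the course, 6 of 8 changed from day 0 to day 8 in Fl/Fl, 1 up and 5 down, and 8 of 8 in null, 2 up and 6 down, where 33.6% of all genes (15.0% up and 18.6% down) and 33.4% (14.9% up and 18.5% down) passed. From day 0 to day 2 the counts were 2 (Dusp6 and Etv4) in Fl/Fl and 3 (Fgfr1, Dusp6 and Etv4) in null, where 3.15% and 5.41% of all genes passed, and at day 4 they were 6 and 5, where 18.5% and 14.7% did. At day 6 they were 6 and 6, where 32.7% and 30.2% did, and the difference of the day 8 changes passed for 0 of the 8 by limma, where 1.09% of all genes passed and 0 of the 8 had an unadjusted p under 0.05. The comparisons of the days share the day 0 arrays.

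Without the 4 null arrays at 11 to 16 of Eif2s3y, an alternative chosen after seeing the data, the genes named above passed again at days 4 and 6 and in the average. Etv5 also passed at day 4 (log2 0.45, adjusted p = 0.0447) and Fgfr1 at day 0 (log2 −0.66, adjusted p = 0.048). The shares of all genes that passed were then 17.0% at day 4, 16.2% at day 6 and 30.9% in the average. In null, the falls from day 0 of Fgfr2 and Etv4 at day 6 no longer passed (adjusted p = 0.0777 and 0.0617). Day 8 is then left with 1 null array, which the average also draws on. Day 8 sizes are therefore given with no test. From day 0 to day 8 in null, Fgfr2 changed by log2 −1.05 and Dusp6 by 0.76. Etv5 was higher in null at day 8 by log2 0.78, and its day 8 change differed between genotypes by log2 0.94.

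Day 8 holds no high-Eif2s3y array, so either set was also compared over days 0 to 6 alone. The other null arrays are 1 at day 0 and 2 at each of days 2, 4 and 6, and the lone array is assumed to vary like the other groups. With all 18 null arrays 5 genes passed (20.3% of all genes), with the 11 high-Eif2s3y arrays 6 (36.1%) and with the other 7 arrays 4 (9.39%). Fgf4, Fgfr1 and Etv4 passed with each set. Spry2 was higher by log2 1.05 (adjusted p = 2.34e-08) with the high-Eif2s3y arrays and by 0.50 (adjusted p = 0.0501) with the others, and Spry4 by 1.29 (adjusted p = 4.19e-05) and 0.63 (adjusted p = 0.186). No test was made between the sets, which are not groups of the study.

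**Figure D3:**
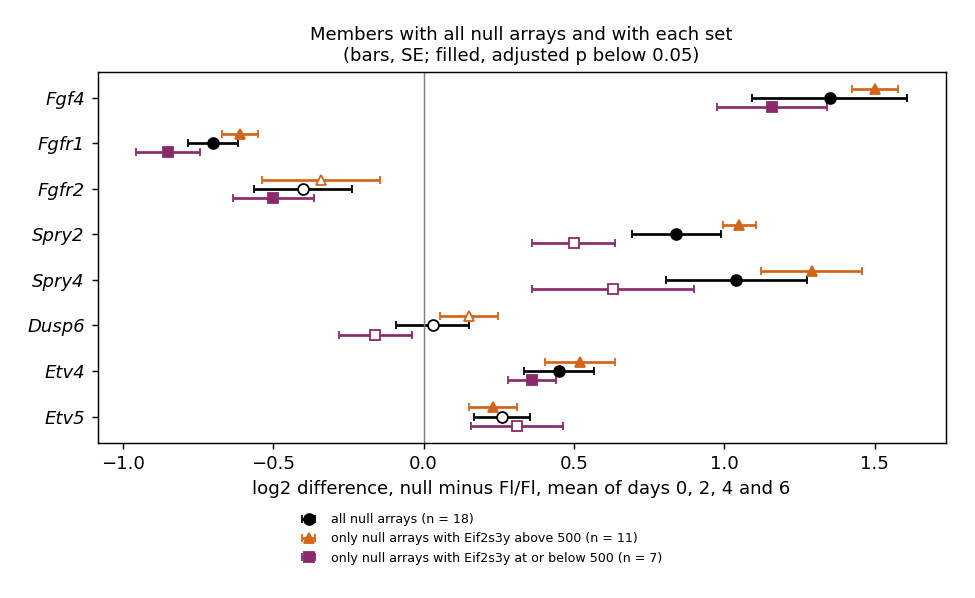
Log2 difference of null from Fl/Fl, averaged over days 0, 2, 4 and 6, for the 8 genes with all null arrays (circles, n = 18), those with Eif2s3y above 500 (triangles, n = 11) and those at or below 500 (squares, n = 7); bars are the SE and filled points have an adjusted p below 0.05. Every gene but Dusp6 lies on the same side of 0 in all 3, and Spry2 and Spry4 are lower with the squares, at 0.50 and 0.63.

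Other genes of the pathway were read from lists of FGF ligands, receptors and heparan sulphate genes, carriers from receptor to ERK, and further ERK-induced or feedback genes. Of 21 other FGF ligands, 3 were higher and 1 lower in null in the average over days, where 7.76% of all genes were higher and 15.5% lower, with a median of 0 beside 0 over all genes. The 3 were Fgf5 (log2 1.61), Fgf15 (0.45) and Fgf1, whose difference was only log2 0.05 or 1.03-fold. Fgf5, a ligand of the primed epiblast, read 5 and 10 in Fl/Fl and 24, 11 and 17 in null at day 0. It reached 266 and 413 in Fl/Fl and 824, 786, 807, 630 and 723 in null at day 4. By day 6 it had come down to 121 and 74 in Fl/Fl and read 1002, 889, 378, 581 and 617 in null (log2 2.74, SE 0.518, adjusted p = 0.00148). At day 6 the difference was 2.39 (adjusted p = 7.36e-05) with the high-Eif2s3y arrays and 3.26 (adjusted p = 0.0703) with the others.

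Fgf8, a ligand of the primitive streak, went the other way from Fgf4 at day 4. It read 367 and 386 in Fl/Fl and 36, 62, 12, 12 and 12 in null (log2 −3.90, SE 0.631, adjusted p = 0.000297). By day 6 it read 229 and 178 in Fl/Fl and 665, 511, 279, 272 and 249 in null, so all 5 null arrays lay above both Fl/Fl arrays, without passing the test (log2 0.84, adjusted p = 0.58). The day 4 difference was −4.57 (adjusted p = 3.73e-10) with the high-Eif2s3y arrays and −2.89 (adjusted p = 0.0896) with the others. Fgf15 was higher in null at day 4 (log2 0.84, adjusted p = 0.00835) at intensities of 8 to 18, near the floor. Fgf13, a member of the family that is not secreted, was lower in the average (log2 −0.70, adjusted p = 0.0281).

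Of 19 measured receptor, co-receptor and heparan sulphate genes, 0 were higher and 10 lower in null in the average over days, where 7.76% of all genes were higher and 15.5% lower, with a median of −0.30 beside 0 over all genes. Among them were Hs6st2, a heparan sulphate sulphotransferase (log2 −1.05, adjusted p = 4.49e-05), the glypican Gpc1 (−1.09, adjusted p = 4.82e-05), the syndecan Sdc3 (−1.21, adjusted p = 0.000365) and Fgfrl1, a receptor without a kinase domain (−0.93, adjusted p = 0.000373). At day 4 the count was 0 higher and 4 lower (11.6% of all genes passed). It was 1 higher and 7 lower with the high-Eif2s3y arrays (24.5%), and 0 passed with the others (5.08%). From day 0 to day 8, 12 rose and 1 fell in Fl/Fl and 11 rose and 2 fell in null (15.0% and 14.9% of all genes rose), the glypicans Gpc3, Gpc4 and Gpc6 among the rises in both. Gpc3 rose 11.1-fold in Fl/Fl and 16.8-fold in null (adjusted p = 2.88e-06 and 1.08e-07).

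Of 14 measured carriers from receptor to ERK, 0 were higher and 6 lower in null in the average over days, where 15.5% of all genes were lower, with a median of −0.19. Ptpn11, the phosphatase SHP2 that carries the signal on from FGF receptors, was lower by log2 −0.38 (SE 0.073, adjusted p = 0.00077), and Gab2, a docking protein, by −0.90 (SE 0.143, adjusted p = 0.000121). At day 6 Gab2 read 52 and 39 in Fl/Fl and 5 or 6 on all null arrays. Gab1, a related docking protein, fell 5.28-fold in Fl/Fl and 5.33-fold in null from day 0 to day 8 (adjusted p = 9.86e-06 and 2.95e-06).

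The further ERK-induced and feedback genes did not follow Spry2 and Etv4. Of 28 measured, 0 were higher and 13 lower in null at day 4, where 7.43% of all genes were lower, with a median of −0.62 beside 0 over all genes; 1 was higher and 16 lower with the high-Eif2s3y arrays (24.5% of all genes passed), and 0 and 7 with the others (5.08%). Dusp4, a nuclear phosphatase of ERK, read 1994 and 2285 in Fl/Fl and 32, 71, 230, 185 and 225 in null at day 4 (log2 −4.13, SE 0.508, adjusted p = 1.5e-05). With the high-Eif2s3y arrays the difference was −3.31 (adjusted p = 1.33e-07) and with the others −5.36 (adjusted p = 0.000178). Spsb1 was lower by log2 −3.37 (adjusted p = 0.00026), the immediate-early gene Fos by −2.90 (adjusted p = 0.0132) and the phosphatase Dusp14 by −2.78 (adjusted p = 0.000334). In the average over days 1 was higher (Egr1, an immediate-early gene, named as the 1 exception) and 14 lower, where 7.76% and 15.5% of all genes were, among them Dusp5, a nuclear ERK phosphatase (log2 −1.22, adjusted p = 1.12e-05), and Flrt3, a membrane partner of FGF receptors (−0.81, adjusted p = 2.02e-05).

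In Fl/Fl, 13 of the 28 rose and 2 fell from day 0 to day 8, and in null 14 rose and 1 fell, where 33.6% and 33.4% of all genes passed. By day 4, however, 10 had risen and 0 fallen in Fl/Fl, whereas 1 had risen and 4 fallen in null, where 18.5% and 14.7% of all genes passed. The difference of these changes passed for 4 genes (1.42% of all genes), all lower in null (Dusp1, Dusp4, Dusp5 and Fos). Fos read 16, 247 and 289 in null at day 0, against 19 and 16 in Fl/Fl, and the 247 and 289 were the high-Eif2s3y arrays. Those 2 arrays enter the day 0 side of its change in null. At day 4 the 10 trophoblast genes, keratins among them, summed to 26769 to 29117 in Fl/Fl and 1833 to 4924 in null. Of the 10, 5 were lower in null, where 7.43% of all genes were. The 11 fibroblast genes measured summed to 435 to 466 and 147 to 309, with 1 lower, and the 10 primitive endoderm genes to 236 to 312 and 168 to 237, with 1 lower. These sums moved beside the 13 lower ERK genes, and their part was not tested.

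**Figure D4:**
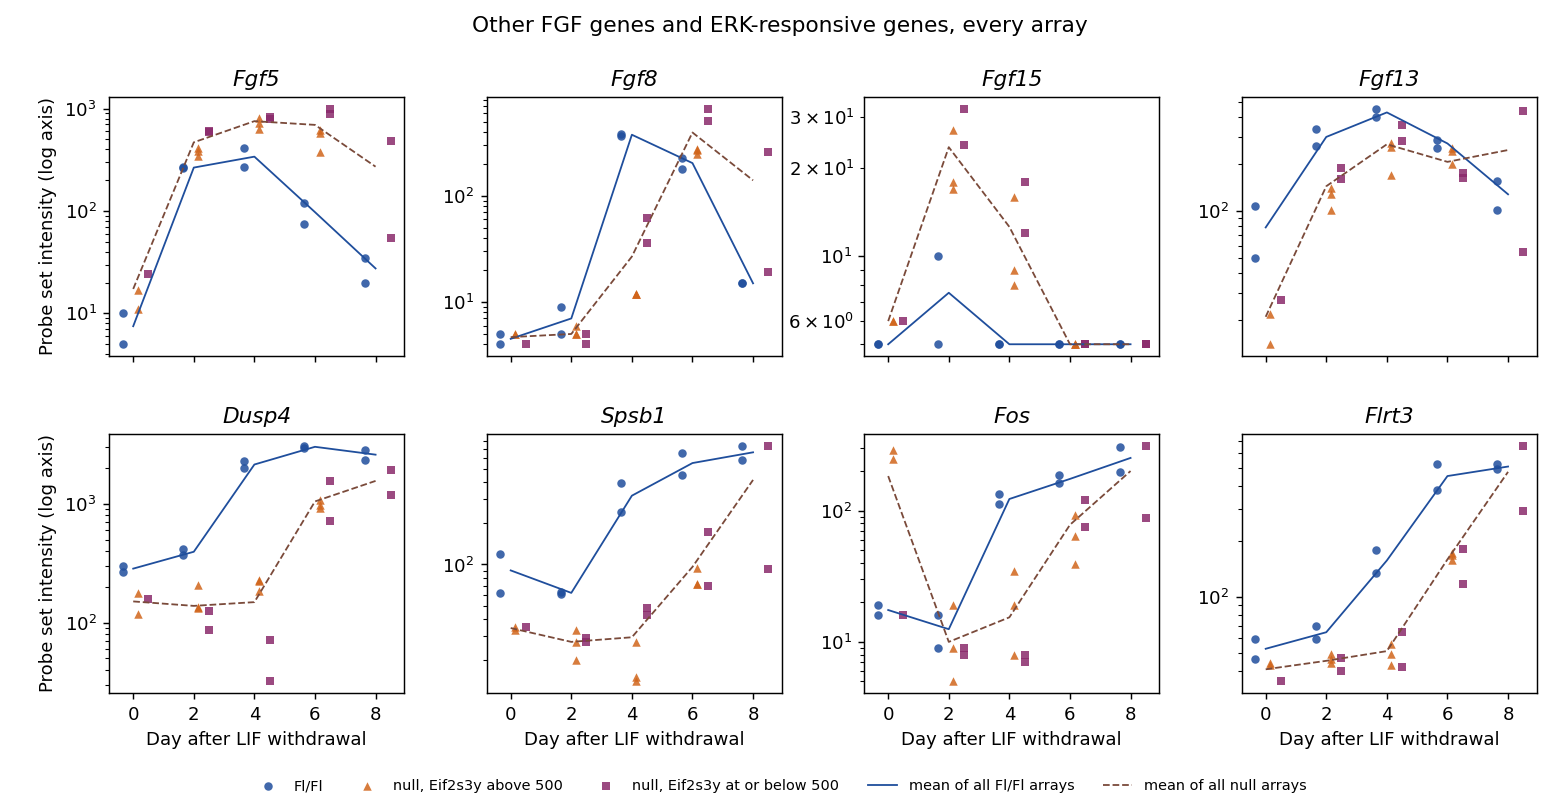
Intensity (log axis) against the day after LIF withdrawal for 4 other FGF genes and 4 other ERK-responsive genes, with 1 point per array and the same symbols as in the plot of the 8 genes; lines join the group means. At day 4 Fgf8 stood at 367 and 386 in Fl/Fl and 12 to 62 in null, and Dusp4 at 1994 and 2285 against 32 to 230.

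Over the 10 group means the 8 genes did not share 1 course. Spry2 and Spry4 ran most alike (Pearson's r = 0.95), Fgf4 and Fgfr1 most opposed (r = −0.93), and Dusp6 had an r between −0.54 and 0.53 with the other 7. These are descriptions over 10 means of the same 30 arrays, whose days and genotypes they share. Among genes that reached a mean of 100 in some group, those with the course most like that of Fgf4 were Pla2g1b (r = 0.995), Msh6 (r = 0.995) and Crabp1 (r = 0.992). For Etv5 they were the DNA replication genes Mcm3 (r = 0.997) and Mcm5 (r = 0.996) and the mitotic kinase gene Ttk (r = 0.995). For Spry2 they were Egfl7 (r = 0.993), Zpr1 (r = 0.993) and Sf3a1 (r = 0.988), for Spry4 Mrpl19 (r = 0.99), for Fgfr1 Ndfip2 (r = 0.988), for Dusp6 Eny2 (r = 0.959), for Etv4 Nme7 (r = 0.957) and for Fgfr2 Kctd15 (r = 0.953).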

How the data were processed

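Total RNA (Trizol) was labelled as biotin cRNA from 5 ug per sample and hybridised to Affymetrix arrays, per the labels' protocols. The authors deposited 1 linear intensity per probe set and array, of 45101 probe sets on 30 arrays. Not given in the sources used here were the background correction, scaling and summary method. Array means were 331.8 to 363.6 and no 2 arrays held identical values. Gene names came from the platform annotation: 34958 probe sets name 1 gene, 932 several and 9211 none, and the latter 2 kinds were left out. Array number limits the precision.

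The deposited intensities were taken to log2 after adding a pseudocount of 4, their 5th percentile, and were not rescaled. The fit, in limma 3.58.1 under R 4.3.3, held a mean for each of the 10 groups over the 30 arrays (lmFit and eBayes, 20 residual degrees of freedom), with Benjamini-Hochberg adjustment over 18194 genes, each by its probe set of highest mean log2 intensity, and apart from that over all probe sets naming 1 gene. The scripts were tested on simulated data. No filter was applied to low values, so all 8 genes were tested.

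The members and lists were chosen with earlier results of these data known. Of 146 list genes, 136 were measured; the other 10 were not analysed here. Named genes were the 8 members; of each of the 4 FGF and ERK lists, up to 4 with the smallest adjusted p in the average over days and up to 4 with the largest changes past 0.05 at day 8 or in the genotypes at day 4; and, for each member, 3 genes by Pearson correlation of group means. Lists were described by counts, with no set test. Promoter windows were cut at the annotated start. Alternatives changed the pseudocount, scaling, low-signal filter, probe set rule, samples in the fit, replicate block, null arrays used, and left out each array.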

Additional observations from a re-analysis of the deposited data

Results flagged for a closer look

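In null cells at day 2, Spry4 read 194 in replicate 2, and the other 4 arrays read 345 to 381. The gap from 194 to the nearest array was 0.807 of the range of the group, beyond Dixon's 95% limit for 5 arrays. It was the 1 group so marked of the 24 groups of 5 null arrays tested (the 8 genes at 3 days), where chance marks about 1 in 20. Replicate 2 is not among the high-Eif2s3y arrays.

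The change of Fgf4 from day 0 to day 4 differed between genotypes by log2 3.82 in the test of the difference itself (limma, adjusted p = 0.00936), with the smaller fall in null. All 5 null arrays stood above both Fl/Fl arrays at day 4.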

How the results depend on the processing

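Values are counts of the 8 genes past the threshold, set against the main counts of the report. Fitting only the groups of a comparison, which leaves few arrays to estimate the spread, gave 1 at day 4, 2 at day 6, 0 for Fl/Fl day 2, 3 for Fl/Fl day 4, 1 for null day 4, 2 for null day 8 and 0 for the difference of day 4 changes. Of all 18194 genes, 1529, 1354, 3, 1766, 1324, 955 and 336 passed in that order. Averaging all probe sets of a gene gave 1 at day 0, 1 for Fl/Fl day 2, 0 for the difference of day 4 changes and 0 for the F test. There 189, 571, 276 and 959 of all 18194 genes passed. The F test gave 2 with arrays centred on their median and 2 with only the brightest 60% of genes. Over all genes 927 of 18194 and 791 of 10917 passed, against 899 of 18194 in the main fit. Median centring also raised the genes that passed in the average over days from 4224 to 11424. High-Eif2s3y null arrays alone gave 3 at day 0, 2 at day 2, 4 for Fl/Fl day 2, 3 for null day 4 and 2 for the difference of day 4 changes. In that order 2601, 1902, 1845, 2878 and 1633 of all 18194 genes passed. The main fit gave 214, 113, 574, 2675 and 259, so more genes passed over the whole array too. These arrays hold no day 8 array, so no comparison with null day 8, average over all 5 days or F test could be made with them. The other null arrays alone gave 2 at day 4 and 1 at day 6, where 5.08% and 1.69% of all genes passed. They hold 1 array at day 0, so no count is given for the difference of day 4 changes. Leaving out the null arrays with Eif2s3y below 100, chosen after seeing the data, gave 1 at day 0, where 2.36% of all genes passed. Counts that draw on day 8 are not given here, because 1 null array is then left at that day. The cause of these shifts was not tested.

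Replicate numbers were checked for pairing by correlating deviations from the group mean between same-numbered arrays of the 2 genotypes. Of 10 pairs, r ranged from -0.2 to 0.26 and 2 exceeded 0.1. The deviations of the 2 Fl/Fl arrays of a day mirror each other. The 10 values are therefore not independent, and the check cannot exclude pairing. With the number as a replicate block the counts were 1 at day 0, 1 at day 2 and 2 for the F test, and the other counts stayed within 1.5 times. Genes that passed then numbered 182, 61 and 995 of 18194 in that order. Leaving out 1 array at a time gave genotype counts of 0 to 1 (day 0), 0 to 0 (day 2), 2 to 5 (day 4), 0 to 4 (day 6), 0 to 1 (day 8) and 5 to 7 (average). For days 2, 4, 6 and 8 against day 0 it gave 0 to 2, 5 to 6, 6 to 7 and 5 to 7 in Fl/Fl and 2 to 3, 3 to 5, 4 to 7 and 6 to 8 in null. It gave 0 to 1 for the differences of day 4 and of day 8 changes and 0 to 2 for the F test. Counts over all genes were not made for the fits that left out 1 array, so these ranges describe the 8 genes only.

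Beside the calls named in the report, further course values had a highest adjusted p above the threshold when leaving out 1 array. In null, without day 0 replicate 1, they were Fgfr1 at day 2 (0.104), Etv4 at day 4 (0.0969), Etv5 at day 4 (0.256) and Etv4 at day 6 (0.122). In Fl/Fl they were Etv4 at day 2 (without Fl/Fl day 2 replicate 1) and Spry4 at day 8 (without Fl/Fl day 0 replicate 2). Dusp6 at day 8 in null was another (without null day 8 replicate 2). These last 3 fits left 1 array in a group, so no p is given for them. Fgfr2 in null at days 6 and 8 is given in the report. No value past the threshold in either setting changed sign; 20 values under other settings (-0.39 to 0.15) and 27 when leaving out an array (-0.53 to 0.21) changed sign without passing. Pseudocounts of 1 and 16 left the call of 135 and 136 of 136 gene values as it was. Of the 22 probe sets, 5 never reached 30, where the arrays resolve little.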

Other observations

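In null cells at day 0, the immediate-early genes Fos and Egr1 differed between arrays: Fos read 16 in replicate 1 and 247 and 289 in replicates 2 and 3, and Egr1 read 93 and then 421 and 484. The 2 Fl/Fl arrays of that day read 19 and 16 for Fos and 116 and 79 for Egr1. Replicates 2 and 3 are the 2 high-Eif2s3y arrays of that day. With them alone Fos was higher than in Fl/Fl by log2 3.66 (limma, adjusted p = 0.000725). For replicate 1, a single array and so given with no test, the difference was log2 -0.10.

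Fgf17, another ligand of the Fgf8 subfamily, named after its values were seen, read 10 and 7 in Fl/Fl and 19, 34, 134, 139 and 87 in null at day 6 (log2 2.48, limma, adjusted p = 0.00364). The 3 highest arrays were the high-Eif2s3y arrays.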
